A study of Homo sapiens with 18 samples.

Results

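RAB4B and EGLN2 are neighbouring protein-coding genes on human chromosome 19, and RAB4B-EGLN2 and MIA-RAB4B are the readthrough genes annotated across them. These 4 genes were taken by the gene symbol attached to each gene identifier, 4 of the 62754 genes in the deposited table. They were chosen by their measured counts, because RAB4B-EGLN2 was high in the siELMO1 libraries, so every comparison of siELMO1 with the controls is given for them as a description, without a test.

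EA.hy926 is a human endothelial line made by fusing umbilical vein endothelial cells with the A549 lung epithelial line. The study asked how loss of ELMO1, an adaptor that acts with DOCK proteins to activate the GTPase RAC, changed the response of these cells to poly(I:C), a double-stranded RNA that mimics viral RNA and is sensed by TLR3. Each of 6 conditions had 3 RNA-seq libraries, called biological replicates in the methods. Mock cells received Lipofectamine RNAiMAX alone. The siNT cells were given a non-targeting control siRNA at 10 nM, and the siELMO1 cells, at the same dose, a pool of 3 siRNAs against ELMO1. The 0 h libraries were made 48 h after transfection, and the 24 h libraries after a further 24 h with 1 μg/ml poly(I:C). All cells were kept in low serum overnight before that point. The model is therefore a hybrid cell line with a transient knockdown by pooled siRNAs. Every 24 h library had poly(I:C), so the effects of poly(I:C) and of the further 24 h in culture cannot be told apart. Each response to or change with poly(I:C) given below is the comparison of 24 h with 0 h.

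EGLN2, also called PHD1, is a prolyl hydroxylase that uses oxygen to mark the HIF alpha subunits for recognition by VHL and destruction. RAB4B is a small GTPase of the early endosome that helps to return internalised receptors to the cell surface. A readthrough transcript begins in the upstream gene, runs past its usual end and is spliced into the downstream gene. Many such transcripts carry a premature stop and are annotated as targets of nonsense-mediated decay (NMD), the pathway that degrades messages with premature stop codons.

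All 4 genes lie on the plus strand (GRCh38, GENCODE v44). RAB4B (ENSG00000167578.18) spans chr19:40778216-40796942 with 8 annotated transcripts, and EGLN2 (ENSG00000269858.6) spans chr19:40798996-40808434 with 18. RAB4B-EGLN2 (ENSG00000171570.11) covers both, at chr19:40778242-40808418, with 3 transcripts. MIA-RAB4B (ENSG00000268975.2) begins upstream, at chr19:40771648-40796943, with 1 transcript. The leading readthrough transcript, RAB4B-EGLN2-201, has 12 exons and 2774 bases and is annotated as an NMD target. Exons 1 to 7 are exons of RAB4B and exons 8 to 12 are contained in exons of EGLN2, so that all 2774 bases also lie in exons of other genes of the group. Of its 11 splice junctions, 1 is found in no other gene, the 13360-base intron that joins RAB4B exon 7 to the large second exon of EGLN2-201.

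The bases at the junctions that tell these transcripts apart are shown in the order in which they occur in the RNA, 15 bases on each side, with the bases after the junction in capitals.
RAB4B-EGLN2-201: gctctgtggagccagCCACCCTGAAGGGTC
RAB4B-201: gctctgtggagccagCTCACCTGTTCTCCA
EGLN2-201: ggaggaaaaagctcgCCACCCTGAAGGGTC
MIA-RAB4B-201: gatgtgaagacagacACTTCCTCTTCAAAT
The readthrough junction has the same left side as the RAB4B junction, ending at chr19 position 40786978, and the same right side as the EGLN2 junction, beginning at position 40800339. In RAB4B-201 the same donor is joined to position 40796570, and in EGLN2-201 the same acceptor follows position 40799262. In MIA-RAB4B-201, position 40777079 is joined to position 40780019, the start of RAB4B exon 2. Among 252835 annotated transcripts, the RAB4B-EGLN2 junction sequence was found in 3, all of them of RAB4B-EGLN2. The RAB4B-201 sequence was found in 5 transcripts, including MIA-RAB4B-201, and the sequences of EGLN2-201 and MIA-RAB4B-201 were each found in 1. Reads across the readthrough junction would place a fragment in RAB4B-EGLN2 directly, and counts of such reads were not analysed here.

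**Figure D1:**
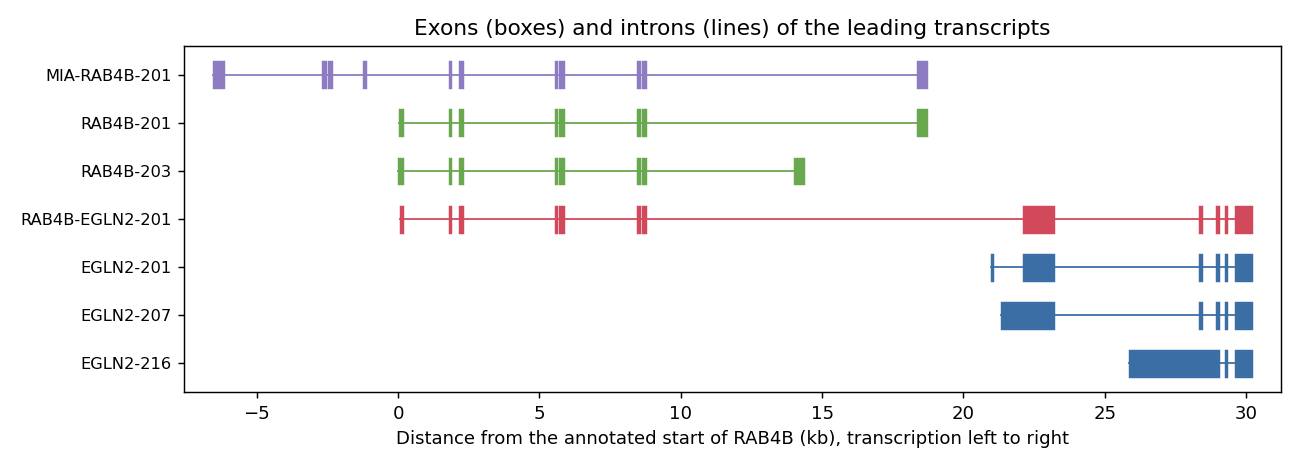
Exon map of the leading transcripts of the 4 genes, with the distance in kb from the annotated start of RAB4B on the x axis, boxes for exons and lines for introns. RAB4B-EGLN2-201 uses 7 exons of RAB4B and then 5 exon positions of EGLN2, and it skips the last exon of RAB4B-201 and the first exon of EGLN2-201.

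The gene counts were estimates in which reads shared by overlapping transcripts had been divided among them, and each gene's count equalled the sum of its transcripts. Libraries held 40374756 to 73850946 counts. Levels between libraries are given as CPM, counts scaled to a common library size, with TMM factors of 0.958 to 1.06. ELMO1 had 10 to 22 counts in the siELMO1 libraries and 80 to 237 in the Mock and siNT libraries, as the labels say. Of 10 endothelial markers, 9 had a median of at least 1 CPM in every condition, and CLDN5 was the exception. Their summed CPM at 0 h was 1921 to 2041 in Mock, 1950 to 2037 in siNT and 2713 to 2962 in siELMO1, and 1427 to 1802, 1839 to 2051 and 2516 to 3065 at 24 h, so the marker sum was higher in the condition in which RAB4B-EGLN2 was high. Of 5 epithelial markers, KRT8 and KRT18 were above that level and CDH1 was at 0. Their sum at 0 h was 765 to 792 in Mock, 812 to 817 in siNT and 976 to 1086 in siELMO1, and at 24 h 484 to 494, 533 to 545 and 533 to 627, so it too was higher in siELMO1 at 0 h and overlapped siNT at 24 h. Of 2 leukocyte markers, PTPRC was at or near 0 and CD68, a lysosomal protein gene, was at 32.1 to 282 CPM. The sum of both was 52.4 to 75.4 in Mock, 32.1 to 36.8 in siNT and 64.6 to 96.9 in siELMO1 at 0 h, and 217 to 282, 137 to 177 and 194 to 235 at 24 h, higher after poly(I:C) in each group. The part of these markers in the results was not tested.

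By the estimated counts, RAB4B-EGLN2 was near 0 in the control libraries and clearly above 0 in 5 of the 6 siELMO1 libraries. These counts rest on how the estimate divided reads shared with RAB4B and EGLN2. A count near 0 therefore does not show that the RNA was absent, and a high count does not show that it was present. At 0 h its counts were 13, 14 and 27 in Mock, 28, 8 and 2 in siNT, and 992, 578 and 1071 in siELMO1. At 24 h they were 14, 5 and 2 in Mock, 0, 3 and 5 in siNT, and 23, 1290 and 594 in siELMO1. All 12 control libraries were at or below 28 counts, and siELMO1 24 h replicate 1 stood with them. Scaled by library, the siELMO1 levels at 0 h were 13.5, 14.5 and 21.4 CPM (16.4 ± 4.29, SD, n = 3). Mock was at 0.244 ± 0.0874 CPM and siNT at 0.193 ± 0.201 CPM. At 24 h the siELMO1 levels were 0.348, 20.02 and 11.9 CPM (10.7 ± 9.88, SD, n = 3), Mock was at 0.128 ± 0.122 CPM and siNT at 0.0470 ± 0.0441 CPM. In bulk RNA, the number of cells that carried the transcript and the amount in each cell cannot be told apart.

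Each siELMO1 library was above all 6 control libraries of its time for this gene, replicate 1 at 24 h by a small margin. Over all 15167 genes tested, the same held for 20.1% at 0 h and 15.1% at 24 h. Since this contrast chose the gene, nothing is read from it. The filter on low counts asked for a total of at least 100 counts and at least 1 CPM in some library. The gene passed it only through the siELMO1 libraries, because its highest control level by library total was 0.424 CPM. Its total over Mock and siNT, 121 counts, would have met the limit on the total. The fitted log2 fold changes were 6.05 over Mock and 6.39 over siNT at 0 h, and 6.42 and 7.74 at 24 h, and their size depended on the prior count, since the controls were near 0.

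**Figure D2:**
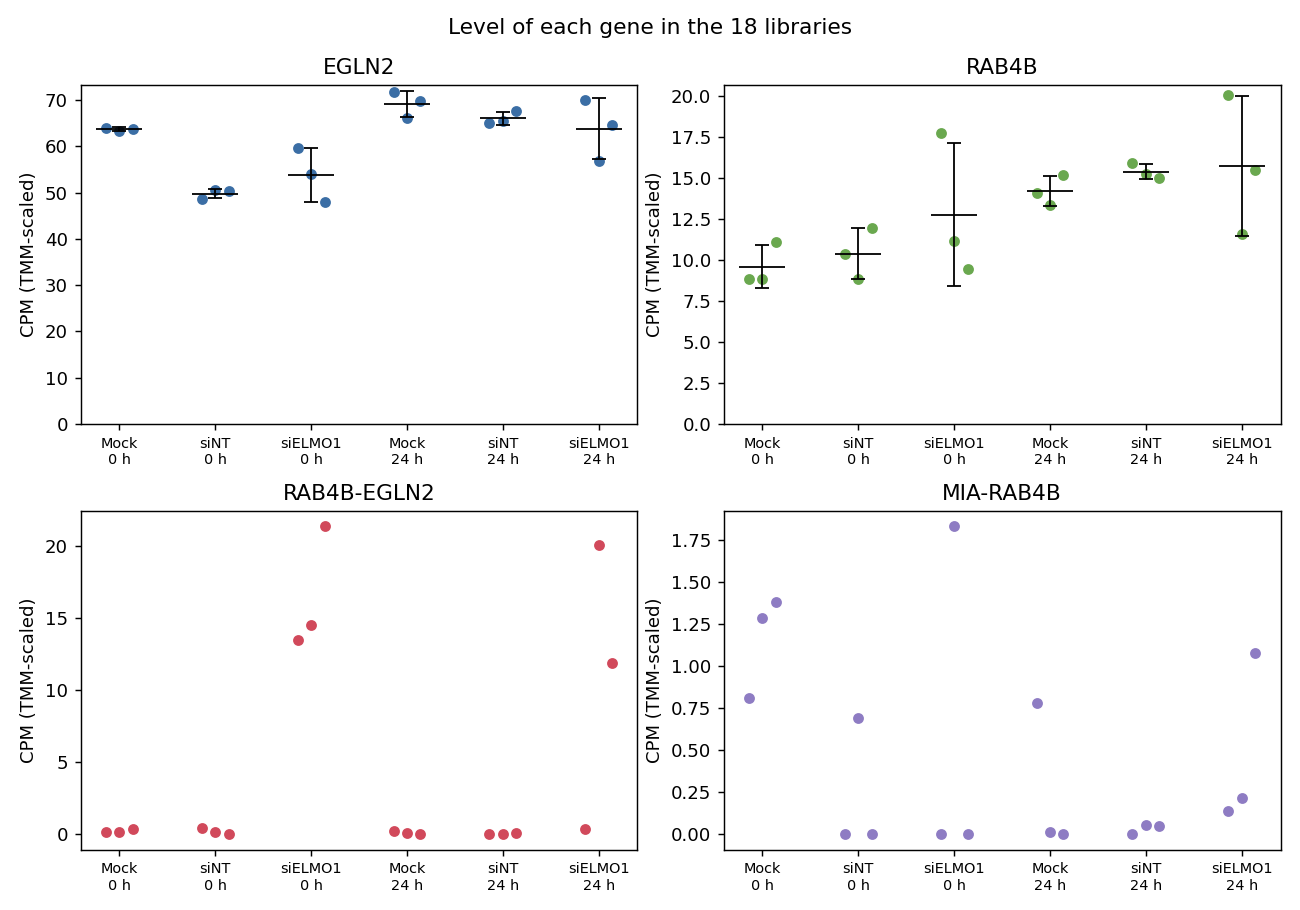
Level of the 4 genes (CPM, y axes) in each of the 18 libraries, by condition on the x axis; points are libraries, and for EGLN2 and RAB4B the bars show the mean and SD of 3 libraries. RAB4B-EGLN2 lies at or below 0.418 CPM in all Mock and siNT libraries and between 11.9 and 21.4 CPM in 5 siELMO1 libraries, with siELMO1 24 h replicate 1 at 0.348 CPM.

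The transcript table placed this signal in 1 transcript. RAB4B-EGLN2-201 was at 0 in all 12 Mock and siNT libraries. It had 981, 565 and 1056 counts in siELMO1 at 0 h, and 0, 1286 and 592 at 24 h, so that replicate 1 at 24 h was at 0 like the controls. The other two transcripts, with 0 to 22 and 0 to 10 counts in a library, made up all of the gene's count in the control libraries. Against a floor of 3 counts in each control library, RAB4B-EGLN2-201 was at least 390-fold higher in siELMO1 than in Mock and at least 350-fold higher than in siNT at 0 h. At 24 h the bounds were 201-fold over Mock and 195-fold over siNT, and without replicate 1 they were 302-fold and 292-fold. These bounds cover counting error only, and they rest on how the estimate divided shared reads.

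Of 162907 transcripts with any count, RAB4B-EGLN2-201 was the only one at 0 in all 12 control libraries and at 100 counts or more in at least 5 of the 6 siELMO1 libraries. The reverse pattern, 0 in all 6 siELMO1 libraries and 100 or more in at least 10 of the 12 controls, was found for 2 transcripts. These thresholds were set after the values had been seen. An abrupt 0 beside a high count was common in this table within a condition as well. Among 24698 transcripts with at least 500 counts in some library, 3976 (16.1%) were at 0 in 1 library and at 500 or more in another library of the same condition. Within the 4 genes, RAB4B-EGLN2-201 was the only such transcript, in siELMO1 at 24 h.

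EGLN2 was the most abundant of the 4 genes in every library, with 2149 to 4997 counts. At 0 h the Mock libraries were at 64.0, 63.2 and 63.8 CPM, the siNT libraries at 48.6, 50.5 and 50.3 CPM and the siELMO1 libraries at 59.6, 53.9 and 47.9 CPM. At 24 h the Mock libraries were at 71.7, 66.1 and 69.8 CPM, the siNT libraries at 64.9, 65.4 and 67.7 CPM and the siELMO1 libraries at 70.1, 56.9 and 64.5 CPM. By mean the order was siNT 0 h (49.8 ± 1.04), siELMO1 0 h (53.8 ± 5.83), Mock 0 h (63.7 ± 0.430), siELMO1 24 h (63.8 ± 6.64), siNT 24 h (66.0 ± 1.47) and Mock 24 h (69.2 ± 2.84 CPM, SD, n = 3 each). Neighbours in this order overlapped, except siELMO1 0 h, whose 3 libraries were all below those of Mock 0 h, as for 25.2% of all genes. The fitted log2 differences of siELMO1 were -0.24 from Mock and 0.11 from siNT at 0 h, and -0.12 and -0.05 at 24 h. At 0 h siELMO1 thus lay between the controls by mean, and its libraries overlapped those of siNT. At 24 h they overlapped both controls.

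In the control cells, EGLN2 differed between siNT and Mock at 0 h, and in siNT between 0 h and 24 h. At 0 h it was lower in siNT than in Mock by 0.36 on the log2 scale (SE 0.0729, adjusted p = 5.4e-04, edgeR quasi-likelihood test with Benjamini-Hochberg adjustment over 15167 genes), and the 3 siNT libraries were below the 3 Mock libraries, as for 30.4% of genes. In that comparison 51.6% of all genes passed, and RAB4B and MIA-RAB4B did not. RAB4B-EGLN2, which entered the fit only through siELMO1, is not counted in the tests of the controls. At 24 h the difference was -0.07 (SE 0.0728, adjusted p = 0.469 by the same test), and none of the 3 genes counted passed with edgeR, DESeq2 or limma-voom or at an unadjusted p under 0.05, against 50.2% of all genes by edgeR.

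Poly(I:C) was followed by higher EGLN2 in siNT, by 0.41 on the log2 scale (SE 0.0731, adjusted p = 1.4e-04, edgeR with Benjamini-Hochberg adjustment). In Mock the difference was 0.12 (SE 0.0726, adjusted p = 0.168 by the same test). In both groups the 24 h libraries were all above the 0 h libraries, as for 32.9% of genes in siNT and 34.9% in Mock. The difference between these responses was 0.29 (SE 0.103, adjusted p = 0.0417 as an interaction in the same edgeR fit), where 31.0% of all genes passed. The call was lost without a filter on low counts (adjusted p = 0.0909), with edgeR's filterByExpr (adjusted p = 0.0509) and with most of the libraries left out 1 at a time (adjusted p up to 0.0938). In siELMO1 the fitted 24 h minus 0 h difference was 0.25 with overlapping libraries. The siNT libraries at 24 h came from the condition with the reported cell death, and its part in these values was not tested.

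RAB4B was expressed in all libraries, at 445 to 1327 counts. At 0 h the Mock libraries were at 8.84, 8.83 and 11.1 CPM, the siNT libraries at 10.4, 8.85 and 12.0 CPM and the siELMO1 libraries at 17.7, 11.2 and 9.45 CPM. At 24 h the Mock libraries were at 14.1, 13.4 and 15.2 CPM, the siNT libraries at 15.9, 15.2 and 15.0 CPM and the siELMO1 libraries at 20.1, 11.6 and 15.5 CPM. The means were 9.59 ± 1.31, 10.4 ± 1.55 and 12.8 ± 4.37 CPM at 0 h and 14.2 ± 0.916, 15.4 ± 0.463 and 15.7 ± 4.24 CPM at 24 h, in that order. This is also the order of the levels from lowest to highest, and each condition overlapped the next. The siELMO1 libraries were the most spread, and replicate 1 was the highest at both times.

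RAB4B was higher at 24 h, after poly(I:C), than at 0 h in both controls. The log2 increase was 0.57 in Mock (SE 0.200, adjusted p = 0.0216) and 0.57 in siNT (SE 0.200, adjusted p = 0.0241, both edgeR with Benjamini-Hochberg adjustment), and in each the 24 h libraries were all above the 0 h libraries, as for 34.9% and 32.9% of genes. RAB4B was the only one of the 3 genes counted to pass in Mock, where 60.3% of all genes passed, and it passed with EGLN2 in siNT, where 53.8% did. Leaving out 1 library ended the call in Mock for 4 of 6 libraries (Mock 0 h replicates 1 and 2, Mock 24 h replicates 1 and 3, with adjusted p up to 0.0949) and in siNT for 3 (siNT 0 h replicates 1 and 2, siNT 24 h replicate 1, up to 0.10). The siNT and Mock levels did not pass at either time (log2 difference 0.12 at both, adjusted p = 0.660 and 0.657, edgeR with Benjamini-Hochberg adjustment).

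The siELMO1 values of RAB4B were higher on average at 0 h, with fitted log2 differences of 0.42 from Mock and 0.31 from siNT. With 1 library left out, these ran from 0.10 to 0.60 and from -0.02 to 0.48, so the sign against siNT was not stable. The differences at 24 h were 0.15 and 0.03. The libraries overlapped the controls in all of these comparisons. The 24 h minus 0 h difference in siELMO1 was 0.29, again with overlap.

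MIA-RAB4B, which begins in MIA, an upstream gene for a secreted protein, was at the edge of detection. Its counts were 53, 95 and 108 in Mock, 0, 42 and 0 in siNT and 0, 73 and 0 in siELMO1 at 0 h, and 41, 1 and 0, then 0, 3 and 3, then 9, 14 and 54 at 24 h. It was at 0 in 6 of 18 libraries, and no comparison of the controls passed the test (adjusted p = 0.225 to 0.332, edgeR with Benjamini-Hochberg adjustment), although every Mock library at 0 h was above all siNT libraries at 0 h and all Mock libraries at 24 h (34.5% of all genes fell without overlap in the latter). With limma-voom, siNT against Mock at 0 h and 24 h against 0 h in Mock passed (adjusted p = 0.0133 and 0.0153). MIA itself had 0 to 20 counts.

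Since the 4 genes share exons, their counts were summed to follow the locus without the division among them. At 0 h the sum was 74.7 ± 1.71 (Mock), 60.6 ± 1.48 (siNT) and 83.6 ± 6.34 CPM (siELMO1, libraries at 90.8, 81.4 and 78.7). At 24 h it was 83.8 ± 3.78 (Mock), 81.5 ± 1.18 (siNT) and 90.8 ± 2.12 CPM (siELMO1, libraries at 90.7, 88.7 and 93.0, SD, n = 3 each). Every siELMO1 library was above all 6 control libraries of its time, as for 20.1% of all genes at 0 h and 15.1% at 24 h, and the sum contains the RAB4B-EGLN2 counts that chose the genes. The fitted log2 differences of siELMO1 were 0.16 from Mock and 0.47 from siNT at 0 h, and 0.12 and 0.16 at 24 h, far smaller than those of RAB4B-EGLN2 itself.

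In the controls, the locus sum at 0 h was below the Mock level in siNT by 0.30 on the log2 scale (SE 0.0513, adjusted p = 9.1e-05) and differed by -0.04 at 24 h (adjusted p = 0.548, both edgeR with Benjamini-Hochberg adjustment). It was higher at 24 h, after poly(I:C), than at 0 h by 0.17 in Mock (SE 0.0511, adjusted p = 0.00976) and by 0.43 in siNT (SE 0.0514, adjusted p = 1.8e-06, edgeR with Benjamini-Hochberg adjustment). The interaction was 0.26 (SE 0.0725, adjusted p = 0.0104 in the same edgeR fit). The increase in Mock was 0.044 with library totals alone (adjusted p = 0.544), a scaling that moved the median of all genes by -0.12 in that comparison.

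The division of the locus among the genes differed more than its sum. RAB4B-EGLN2 held 14.8, 17.8 and 27.1% of the locus counts in siELMO1 at 0 h (19.9 ± 6.41%), against 0.325% in Mock and 0.323% in siNT. At 24 h it held 0.384, 22.6 and 12.8% in siELMO1 (11.9 ± 11.1%, or 17.7% without replicate 1), against 0.150% in Mock and 0.0573% in siNT. The share of EGLN2 was 85.3% in Mock, 82.2% in siNT and 64.2 ± 2.94% in siELMO1 at 0 h, and 82.6%, 81.0% and 70.3 ± 6.65% at 24 h. The siELMO1 library with a RAB4B-EGLN2 share near 0, replicate 1 at 24 h, had the highest EGLN2 level (70.1 CPM) and the highest RAB4B level (20.1 CPM) of its group, and its locus sum of 90.7 CPM lay between those of the other two.

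**Figure D3:**
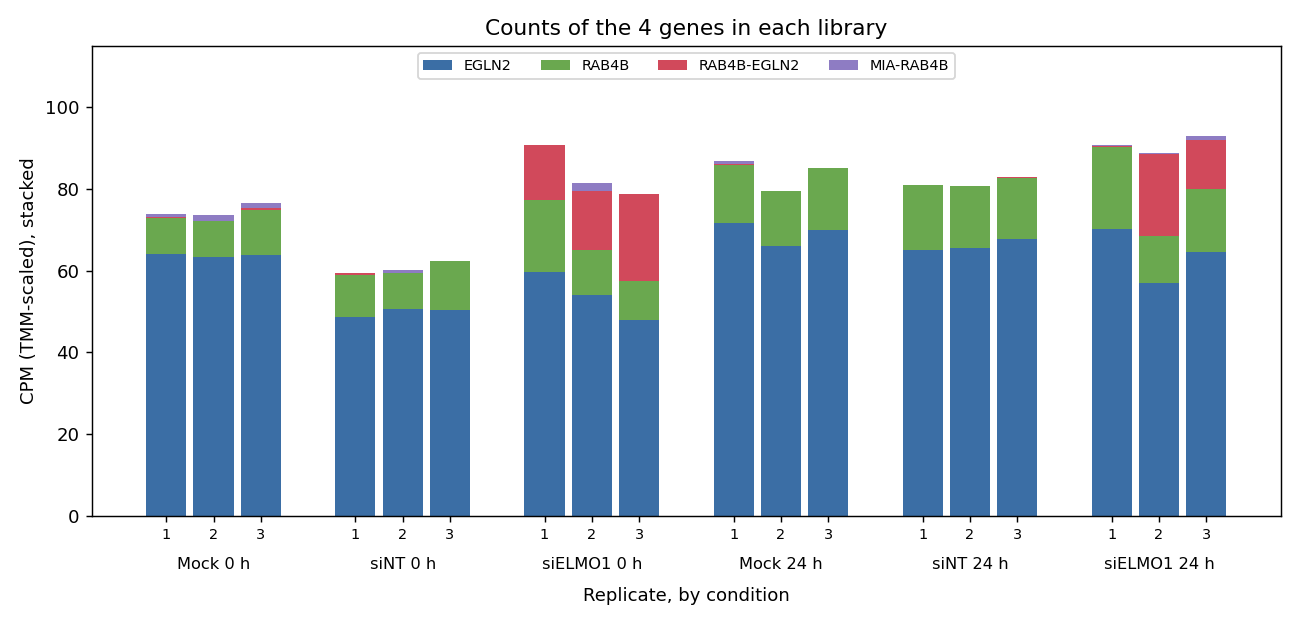
Summed level of the 4 genes in CPM in each library (y axis, starting at 0), stacked by gene, for the 18 libraries in 6 conditions. The RAB4B-EGLN2 segment is visible in 5 siELMO1 libraries and not in siELMO1 24 h replicate 1, while the bar heights of the 3 siELMO1 libraries at 24 h are 88.7 to 93.0 CPM.

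Per length, EGLN2 was above RAB4B in every condition. In TPM, which divides counts by transcript length and scales each library to the same sum, EGLN2 was 70.6, 51.7 and 55.9 ± 7.20 at 0 h in Mock, siNT and siELMO1, and 71.2, 68.1 and 66.3 ± 7.42 at 24 h. RAB4B was 19.7, 20.8 and 24.8 ± 11.0 TPM at 0 h and 26.2, 29.8 and 30.7 ± 7.88 TPM at 24 h. RAB4B-EGLN2 reached 14.4 ± 3.49 TPM in siELMO1 at 0 h and 9.36 ± 7.80 TPM at 24 h, below RAB4B by mean at both times, and 0.155 to 0.717 TPM in the controls. MIA-RAB4B was at 0.0444 to 1.57 TPM by condition.

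A further measure, added after the values had been seen, summed the transcript estimates that contain an exon, for 1 exon of RAB4B and 1 of EGLN2. It is not a count of reads on the exon, and it rests on the same division of shared reads. For RAB4B exon 7 (chr19:40786848-40786978, 131 bases, the last exon before the readthrough junction), CPM per kb of transcript were summed over all 10 transcripts that hold it. The sum was 8.77 ± 1.47 in Mock, 8.95 ± 0.917 in siNT and 19.4, 15.3 and 15.2 (16.6 ± 2.38) in siELMO1 at 0 h. At 24 h it was 11.4 ± 0.952 in Mock, 12.6 ± 0.408 in siNT and 16.7, 16.1 and 17.4 (16.7 ± 0.635, SD, n = 3 each) in siELMO1. Every siELMO1 library was above every control of its time, including replicate 1 at 24 h, as for 20.1% and 15.1% of all genes at 0 h and 24 h by their gene counts. The sum includes RAB4B-EGLN2 and so is a description. The ratios of the means were 1.90 over Mock and 1.86 over siNT at 0 h and 1.47 and 1.32 at 24 h.

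RAB4B-EGLN2 transcripts supplied 25.8, 36.5 and 53.0% of the exon 7 sum in siELMO1 at 0 h and 3.14, 45.3 and 24.8% at 24 h. RAB4B's own transcripts supplied 10.1 ± 3.81 in siELMO1 at 0 h, against 7.83 ± 1.26 in Mock and 8.56 ± 1.15 in siNT, with overlap. In replicate 1 at 24 h, RAB4B's own transcripts supplied 16.1 of 16.7, against 8.67 and 12.5 in the other two siELMO1 libraries. The exon level in siELMO1 at 24 h thus spanned 16.1 to 17.4 while the part given to the readthrough gene spanned 0.526 to 7.29.

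The same sum was made for the last exon but 1 of EGLN2 (chr19:40807484-40807551, 68 bases, 12 transcripts). It was 28.8 ± 0.348 in Mock, 22.6 ± 0.876 in siNT and 29.4 ± 2.03 in siELMO1 at 0 h, and 31.5 ± 0.836, 29.8 ± 0.352 and 32.0 ± 0.860 at 24 h. The ratios of siELMO1 to Mock were 1.02 at both times, with overlapping libraries. The ratios to siNT were 1.30 at 0 h and 1.07 at 24 h, without overlap. The share of all genes without overlap between siELMO1 and siNT is not given here, so nothing is read from that. EGLN2's own transcripts gave 23.6 ± 2.49 in siELMO1 at 0 h, below every Mock library, as for 25.2% of all genes by their gene counts, and overlapping siNT.

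**Figure D4:**
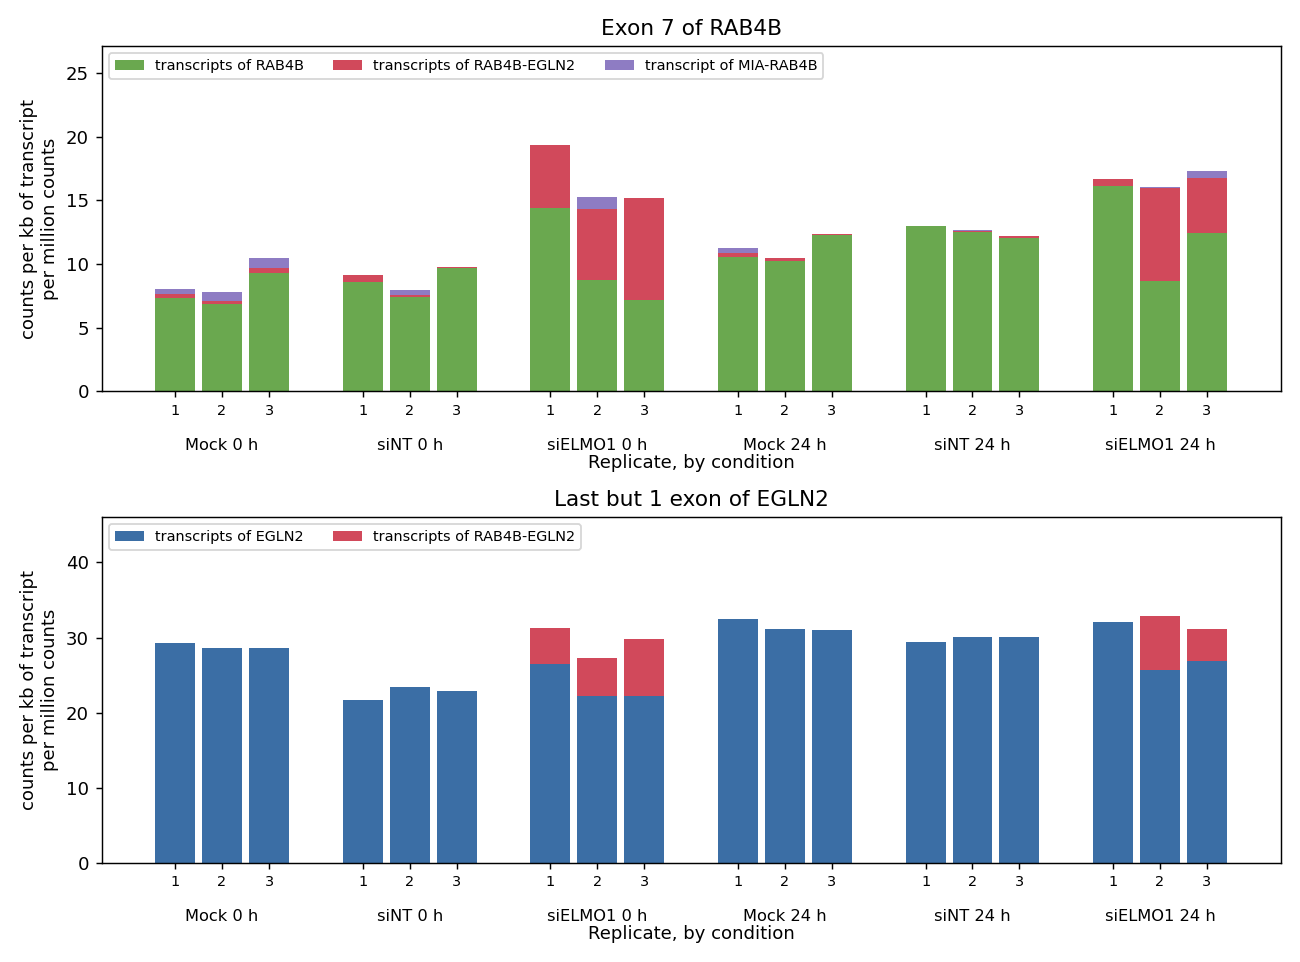
CPM per kb of transcript, summed over all transcripts that hold RAB4B exon 7 or the last exon but 1 of EGLN2 (y axes), split into the genes' own transcripts, RAB4B-EGLN2 and, for exon 7, MIA-RAB4B, for each library in bars from 0. At 24 h the RAB4B exon sums in siELMO1 are 16.7, 16.1 and 17.4, although the RAB4B-EGLN2 part is 3.14, 45.3 and 24.8% of them.

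Among the other transcripts, RAB4B-201 (1159 bases, protein coding) held 9588 of the 14195 RAB4B counts over the 18 libraries, with 277 to 1064 in each. The next RAB4B transcript, a protein-coding form of 1173 bases with 382 bases in no other gene of the group, had 14 to 216 counts. EGLN2-201 (2100 bases, protein coding) held 48225 of 66808 EGLN2 counts, with 888 to 3825 in each library. EGLN2-216, a form with a retained intron, held 8296 (216 to 757 in each library) and EGLN2-207 held 6650 (64 to 770). Of the 18 EGLN2 transcripts, 5 were at 0 in every library.

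The counts of the 4 genes can also take in reads of genes that overlap them. A long non-coding RNA (ENSG00000282951) lies over RAB4B on the other strand and had 0 to 35 counts. Another gene (ENSG00000268797) overlaps EGLN2 on the same strand and was listed at 0 in all libraries. Whether counting used the strand of the library is not given in the sources used here. Within 50 kb of the 4 genes lie 12 other genes, of which COQ8B, ITPKC, ACTMAP and SNRPA were tested. ITPKC, an inositol trisphosphate kinase gene, was higher in siELMO1 than in Mock by 0.23 (adjusted p = 0.0330) and than in siNT by 0.28 on the log2 scale (adjusted p = 0.00980) at 0 h, and ACTMAP by 0.40 (adjusted p = 0.00893) and 0.78 (adjusted p = 1.6e-05, all edgeR with Benjamini-Hochberg adjustment). COQ8B was lower than in siNT by 0.38 (adjusted p = 0.00727, edgeR with Benjamini-Hochberg adjustment) and differed by -0.11 from Mock (adjusted p = 0.454 by the same test). SNRPA, a spliceosome subunit gene, was lower than in Mock by 0.27 (adjusted p = 0.00598, edgeR with Benjamini-Hochberg adjustment) and differed by -0.12 from siNT (adjusted p = 0.156 by the same test). At 0 h, 50.2% of all genes passed against Mock and 62.6% against siNT. At 24 h SNRPA differed by -0.73 from Mock and -0.40 from siNT (adjusted p = 3.9e-07 and 2.0e-04 by the same test). In the same order, ITPKC differed by 0.02 and 0.05 (adjusted p = 0.870 and 0.678, edgeR). ACTMAP differed by -0.26 and 0.37 (adjusted p = 0.0747 and 0.0121, edgeR) and COQ8B by -0.29 and -0.34 (adjusted p = 0.0504 and 0.0175, edgeR). No neighbour had a difference near that of RAB4B-EGLN2.

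Other genes annotated as readthroughs gave a measure of how such genes behaved in this table. Of 134 other readthrough symbols, 73 were tested (74 gene rows). In siELMO1, 10 rows passed against Mock and 17 against siNT at 0 h, and 8 and 13 at 24 h, by edgeR with Benjamini-Hochberg adjustment. These were 13.5, 23.0, 10.8 and 17.6% of the rows, where 50.2, 62.6, 43.6 and 52.6% of all genes passed. Against both controls at 0 h, COMMD3-BMI1 and IQCJ-SCHIP1 were higher and CENPS-CORT, RTEL1-TNFRSF6B and STIMATE-MUSTN1 were lower, 2 and 3 of 73, beside 18.0% and 16.7% of all genes. At 24 h none was higher (12.2% of all genes were) and CENPS-CORT, MSANTD3-TMEFF1 and NME1-NME2 were lower (11.3%). COMMD3-BMI1 had 0 counts in all Mock and siNT libraries at 0 h and 21, 0 and 134 in siELMO1, so its call rested on 2 libraries. The median log2 difference of the list was -0.04 from Mock and -0.01 from siNT at 0 h, against 0.04 and 0.00 over all genes. Fitted differences at 0 h as large as those of RAB4B-EGLN2 (6.05 and 6.39) were found for 3 other readthrough genes. That of INO80B-WBP1 was 9.41 from both controls and came from 1 library, with 299, 0 and 0 counts in siELMO1 and 0 in Mock and siNT. COMMD3-BMI1 differed by 8.91 from both. TRIM39-RPP21, at 0 in siELMO1, had 1 Mock library at 37 counts and 1 siNT library at 38 and differed by -6.37 and -6.55. A large fitted difference was therefore not particular to RAB4B-EGLN2 among these genes.

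RAB4B-EGLN2 was also among the readthrough genes with the widest range between libraries of a condition. That range was 4.60 on the log2 scale, in siELMO1 at 24 h, the fifth of 75 readthrough genes. A small constant was added to the CPM before the logarithm, and the size of the ranges depends on it. The ranges of PEDS1-UBE2V1 (6.00), BIVM-ERCC5 (5.26), ISY1-RAB43 (4.71) and RPL36A-HNRNPH2 (4.70) were wider.

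The partners of EGLN2 in oxygen sensing were measured as a list of 14 genes, of which 12 were tested. EGLN3 and HIF3A were at or near 0 counts, while EGLN1 and P4HTM, a transmembrane prolyl hydroxylase, had levels to set beside EGLN2. P4HTM was at 5.30 to 6.87 CPM by condition. At 0 h, 4 of the 12 were higher and 5 lower in siELMO1 than in Mock, where 27.9% of all genes were higher and 22.4% lower, by edgeR with Benjamini-Hochberg adjustment. Against siNT, 2 were higher and 8 lower, where 31.3% of all genes were higher and 31.3% lower. The median log2 differences were -0.13 and -0.34, against 0.04 and 0.00 over all genes. Those higher than both controls were ARNT and EPAS1, the HIF beta and HIF-2 alpha subunits, and those lower than both were EGLN1, ELOC, RBX1, VHL and ARNT2, the last at 0.559 CPM or less by condition. Over all genes, 18.0% were higher than both controls at 0 h and 16.7% lower.

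EPAS1 was 255 ± 3.66, 168 ± 8.53 and 349 ± 19.2 CPM at 0 h in Mock, siNT and siELMO1 (SD, n = 3 each), log2 differences of 0.45 (SE 0.0612) and 1.06 (SE 0.0618). VHL, the ubiquitin ligase subunit that binds hydroxylated HIF, was 81.0 ± 2.25, 89.6 ± 2.06 and 47.6 ± 6.83 CPM, differences of -0.76 and -0.91. EGLN1, the hydroxylase also called PHD2, was 65.1 ± 1.83, 79.8 ± 2.84 and 52.8 ± 6.58 CPM, differences of -0.30 and -0.59. At 24 h, EPAS1 was again higher (0.74 and 0.27) and VHL lower (-0.37 and -0.37) than both controls, the only genes of the list to do so. Over all genes, 12.2% were higher and 11.3% lower than both at that time. Of the list, 4 were higher and 1 lower than Mock (21.6% and 22.0% of all genes) and 2 higher and 6 lower than siNT (26.0% and 26.5%).

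Genes induced by HIF were a list of 13, of which 12 were tested and CA9 was at 0 throughout. At 0 h, 6 were higher and 2 lower in siELMO1 than in Mock, beside 27.9% and 22.4% of all genes. Against siNT, 5 were higher and 4 lower, beside 31.3% in each direction. The medians were 0.23 and 0.23 on the log2 scale, against 0.04 and 0.00 over all genes. ADM, KDM3A, PFKFB3, SLC2A1 and VEGFA were higher than both controls, and LDHA and NDRG1 were lower, beside 18.0% and 16.7% of all genes. SLC2A1, the glucose transporter GLUT1, was 50.8 ± 0.188, 62.5 ± 1.55 and 100.3 ± 7.94 CPM in Mock, siNT and siELMO1, log2 differences of 0.98 and 0.68. NDRG1 was 63.1 ± 4.12, 79.1 ± 0.944 and 41.9 ± 2.81 CPM, differences of -0.59 and -0.92. At 24 h, 5 were higher and 1 lower than Mock (21.6% and 22.0% of all genes) and 5 higher and 4 lower than siNT (26.0% and 26.5%), so the list moved in both directions.

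Genes of the RAB4 and endosomal recycling pathway were a list of 15, of which 14 were tested. At 0 h, 8 were higher and 2 lower in siELMO1 than in Mock, beside 27.9% and 22.4% of all genes. Against siNT, 8 were higher and 3 lower, beside 31.3% in each direction. The medians were 0.23 and 0.23 on the log2 scale, against 0.04 and 0.00 over all genes. GRIPAP1, RAB11A, RAB5A, RAB5B, RAB5C and RUFY1 were higher than both controls, and RBSN, the rabenosyn that links RAB5 and RAB4, was lower. Of all genes, 18.0% were higher and 16.7% lower than both. RAB5A, the GTPase of early endosome fusion, was 99.8 ± 1.67, 64.5 ± 2.90 and 145 ± 9.09 CPM in Mock, siNT and siELMO1, log2 differences of 0.54 and 1.17. RBSN was 50.4 ± 2.52, 50.6 ± 2.96 and 33.5 ± 4.45 CPM, a difference of -0.59 from each. At 24 h, 7 were higher and 2 lower than Mock (21.6% and 22.0% of all genes) and 5 higher and 4 lower than siNT (26.0% and 26.5%). RAB4A, the paralogue of RAB4B, differed by -0.04 from Mock (adjusted p = 0.634, edgeR with Benjamini-Hochberg adjustment) and was higher than siNT by 0.30 at 0 h.

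Between 0 h and 24 h with poly(I:C), RAB4A went the other way from RAB4B. It fell by 1.44 on the log2 scale in Mock, from 26.6 ± 0.515 to 9.80 ± 0.727 CPM, and by 0.68 in siNT, from 20.9 ± 0.459 to 13.0 ± 0.188 CPM (SE 0.0710 and 0.0700, edgeR). Of the recycling list, 4 were higher and 2 lower at 24 h in Mock (30.7% and 29.6% of all genes) and 4 higher and 4 lower in siNT (28.6% and 25.2%). Of the oxygen-sensing list, 3 were higher and 1 lower in Mock and 2 higher and 4 lower in siNT, and EPAS1 fell by 1.48 in Mock and by 0.40 in siNT. Of the HIF-induced list, 5 were higher and 5 lower in Mock and 4 higher and 5 lower in siNT. Between siNT and Mock at 0 h, 7 oxygen-sensing genes were higher and 1 lower, 6 and 2 of the HIF-induced genes, and 5 and 6 of the recycling genes, beside 27.6% and 24.0% of all genes. At 24 h these counts were 6 and 0, 5 and 4, and 7 and 2, beside 25.2% and 24.9%.

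**Figure D5:**
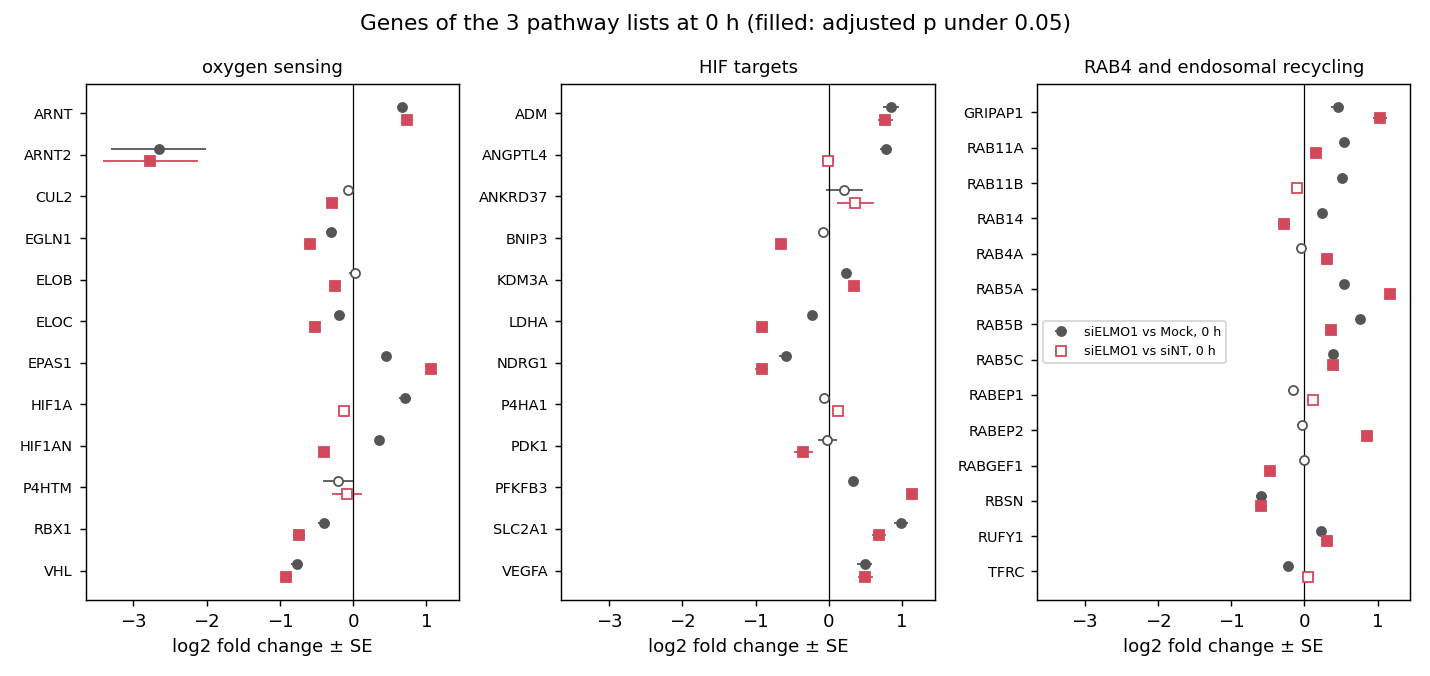
Log2 fold changes (x axis) of the tested oxygen-sensing, HIF-induced and RAB4 recycling genes in siELMO1 against Mock (circles) and against siNT (squares) at 0 h, with the SE as bars and filled symbols for an adjusted p under 0.05 (edgeR). At 0 h the list medians are -0.13 and -0.34 for oxygen sensing and 0.23 and 0.23 for both other lists.

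The genes whose levels followed RAB4B-EGLN2 and EGLN2 most closely were taken as a description, among 13573 genes. The measure was Pearson's r over the 18 libraries of log2 CPM, with a small constant added to the CPM because of values at 0. For RAB4B-EGLN2 they were THSD7A (0.93), ENSG00000258168 (0.91), PBXIP1 (0.91), DOCK6 (0.91) and ROBO4 (0.90). PBXIP1 averaged 52.0 CPM in the 12 control libraries and 105 CPM in the 6 siELMO1 libraries. Over the 12 controls alone the highest was MSH5-SAPCD1 (0.79), which rests on RAB4B-EGLN2 counts of 0 to 28. For EGLN2 they were ARHGEF1 (0.94), KDSR (0.92), REPIN1 (0.91), FADD (0.90) and ARHGEF18 (0.90). The libraries share their conditions, and no test was made of these values.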

How the data were processed

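RNA-seq of 18 EA.hy926 libraries was used, 3 in each of 6 conditions, grouped by the labels. Per the labels and methods, the authors aligned reads to GRCh38 with STAR and deposited gene and transcript tables of estimated counts made with StringTie and its count-extraction script on GENCODE v44 (versions not given in the sources used here). These whole numbers derive from coverage, so reads shared by overlapping transcripts had been divided by an estimate. Transcript rows summed to the gene row for all 62700 of 62754 genes matched to the annotation. Genes with at least 100 counts in total and 1 CPM in some library (15167) were fitted together with edgeR 4.0.16 (R 4.3.3): TMM scaling, quasi-likelihood tests, Benjamini-Hochberg adjustment, threshold 0.05. The locus sum was tested as an added row. The biological coefficient of variation was 12.2%. CPM used full library totals times TMM factors, and TPM used transcript lengths. p-values measure the spread between these libraries. The fit was tested on simulated data. DESeq2 1.42.0, limma-voom (limma 3.58.1), other scalings, filters and leaving out each library were alternatives. The interaction and the exon sums were added after seeing the data. The 4 genes and the lists were chosen with earlier results of these data known. Genes outside the 4 were named from the lists, as neighbours, or as the 5 with the highest correlation; those for EGLN2 over the 12 controls are not reported here. Same-numbered Mock and siNT libraries at 24 h deviated together (correlations 0.145 to 0.228 over 11033 genes), and in no other pair of conditions were all 3 over 0.1. Of all 45 same-numbered pairs, 14 were over 0.1, with a range of -0.278 to 0.348. These correlations cannot settle whether the numbers pair samples, and the labels do not say.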

Additional observations from a re-analysis of the deposited data

Results flagged for a closer look

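The change of EGLN2 from 0 h to 24 h with poly(I:C) differed between the control groups by a test of the interaction. That call was lost in most fits with 1 library left out and with some filters. The 24 h minus 0 h difference was 0.41 in siNT and 0.12 in Mock on the log2 scale. The interaction was 0.29 (SE 0.103, adjusted p = 0.0417, edgeR interaction with Benjamini-Hochberg adjustment), where 31.0% of all genes passed. The adjusted p was 0.0909 without a filter on low counts, 0.0509 with filterByExpr and 0.0351 to 0.0938 with 1 library left out (all edgeR). Every siNT library at 24 h was above every siNT library at 0 h for EGLN2, as for 32.9% of all genes. The Mock libraries were separated in the same direction, as for 34.9% of all genes. For the locus sum the interaction was 0.26 (SE 0.0725, adjusted p = 0.0104, same edgeR test), with 0.43 in siNT and 0.17 in Mock. At 0 h both were lower in siNT than in Mock, so the difference between responses and the difference at 0 h share the same 0 h libraries and cannot be told apart. The part of the cell death reported in siNT at 24 h was not tested.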

How the results depend on the processing

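Over 925 alternative values of 100 results, none changed the sign of a called value, 859 stayed on the same side of the threshold or within the replicate spread, 27 lost a call, 5 gained one and 34 moved. The increase of RAB4B with poly(I:C) in Mock was 0.44 with library totals alone (adjusted p = 0.0745, edgeR), and 0.47 to 0.65 with 1 library left out. In siNT it was 0.55 without a filter (adjusted p = 0.0503, edgeR), and 0.46 to 0.68 with 1 library left out. The EGLN2 increase in Mock passed when only those 2 groups were fitted (0.12, adjusted p = 0.0373, edgeR). The EGLN2 interaction was 0.30 without a filter, 0.29 with edgeR's filterByExpr (adjusted p = 0.0509) and 0.26 to 0.34 with 1 library left out, where the call was kept only without Mock 0 h replicate 2 or Mock 24 h replicate 1. The locus increase in Mock was 0.044 with library totals alone, 0.095 with upper-quartile factors, 0.15 without a filter, and 0.11 to 0.20 with 1 library left out (lost without Mock 0 h replicate 1 or 2 or Mock 24 h replicate 1). The locus difference of siELMO1 from siNT at 24 h was 0.11 with library totals alone. The cause of these changes was not tested.

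RAB4B-EGLN2 differed from Mock at 0 h by 5.82 to 6.36 and from siNT by 5.87 to 7.67 (the latter without siNT 0 h replicate 1) with 1 library left out, and from siNT by 6.93 with limma-voom. At 24 h it differed from Mock by 5.59 (without siELMO1 24 h replicate 2) to 7.46 (without Mock 24 h replicate 1) and from siNT by 6.91 (without siELMO1 24 h replicate 2) to 8.50 (without siNT 24 h replicate 3). MIA-RAB4B, at 0 in 6 libraries, gave no stable size. With limma-voom its difference was -5.16 for siNT against Mock at 0 h, -4.47 for poly(I:C) in Mock, -4.95 and 0.21 for siELMO1 against Mock and siNT at 0 h, 2.55 against Mock at 24 h and 3.03 for poly(I:C) in siELMO1. With 1 library left out the same values ran from -9.14 to -1.76, -6.83 to -1.56, -9.17 to -0.37, -6.81 to 8.13, -0.54 to 5.48 and -1.69 to 7.86, and siELMO1 against siNT at 24 h from 2.23 to 4.07. The first passed without siNT 0 h replicate 2 (adjusted p = 0.0325, edgeR) and the next without Mock 24 h replicate 1 (adjusted p = 0.0361, edgeR), where the other libraries left out gave no call. The shares of the locus with counts divided by transcript length were, at 0 h in Mock, siNT and siELMO1, 21.2, 28.3 and 25.1% for RAB4B and 76.3, 70.5 and 58.5% for EGLN2. At 24 h they were 26.6, 30.4 and 28.5%, and 72.6, 69.4 and 61.8%. For RAB4B-EGLN2 they were 0.768 and 0.819% in Mock and siNT at 0 h and 0.403 and 0.159% at 24 h.

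With the replicate number as a block, EGLN2 in siNT against Mock at 24 h was -0.07 (adjusted p = 0.452, edgeR), and the block changed no call in the comparisons of the 4 genes. For siNT against Mock at 24 h, the block gave 7 called oxygen-sensing genes in place of 6 and 10 HIF-induced genes in place of 9. The labels do not say whether shared numbers pair samples in any comparison. RAB4B-EGLN2 rests on an estimate that divides reads among overlapping transcripts, and MIA-RAB4B on 0 to 108 counts in a library.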
